A study of Mus musculus with 14 samples.

Results

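Transcripts of 10 basement membrane and matrix glycoprotein genes were followed in liver sinusoidal endothelial cells (LSECs) of aged and young mice. The genes were chosen by name, with earlier results of these data known. Shares of these genes set beside all targets are therefore descriptions, not tests. The 10 genes comprise the laminin chain genes Lama4, Lamb1, Lamb2 and Lamc1 and the nidogen genes Nid1 and Nid2. The others are the perlecan gene Hspg2, and Sparc, Fn1 and Emilin1. Each of the 10 matched 1 of 23930 amplicon targets, and all were among the 14168 targets with enough reads to be tested. The libraries came from LSECs sorted from female C57BL/6J mice, wild type in both age groups, by dim CD45, high STAB2 and high CD146. There were 7 aged libraries (10 to 11 months) and 7 young libraries (8 to 10 weeks), from 2 experiments, of which experiment 1 gave 3 of each age and experiment 2 gave 4. Messenger RNA was read with the Ion AmpliSeq mouse panel, in which a short amplicon stands for each gene, so levels are compared for 1 gene between libraries and not between genes. The labels do not state that each library is a separate mouse, so the p-values cover variation among libraries, part of which may be technical.

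A basement membrane is a thin sheet of matrix on which endothelium rests. Laminins are its trimers of an alpha, a beta and a gamma chain, collagen IV forms the second network, and nidogens and the proteoglycan perlecan link the networks to each other. In healthy liver the fenestrated sinusoidal endothelium lacks a continuous, electron-dense basement membrane, and deposition of one in the space of Disse is a known feature of capillarization, the loss of fenestrae in fibrosis and ageing.

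In aged LSECs, transcripts of 7 of the 10 genes were lower and of 3 were higher than in young LSECs, and none passed the test across all targets. The genes with the lowest p-values were Emilin1, Sparc, Hspg2, Nid2 and Lamc1, which were 1.39-fold to 1.74-fold lower in aged libraries. The edgeR quasi-likelihood test called 0 of 10 at a Benjamini-Hochberg adjusted p under 0.05, against 23 of all targets, or 0.162%. At an unadjusted p under 0.05, 5 of 10 were lower, where 3.34% of all targets were, and 0 of 10 were higher, where 3.43% of all targets were. DESeq2 called 2 of the 10, Emilin1 and Sparc, both lower, where it called 1.03% of all targets, and limma-voom called 0, where it called 0.155%. The median log2 fold change, aged over young, was −0.41 for the 10 genes and −0.00224 for all targets, of which 50.4% were lower.

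Libraries held 6710403 to 13977361 gene reads. All 14 LSEC markers were tested, and their summed level was 20664 to 36888 CPM (reads relative to library size, with TMM normalisation) among aged and 25792 to 38936 CPM among young libraries. Of these markers 12 were lower in aged libraries, where 50.4% of all targets were, and 2 were higher, with 0 called. Their median log2 fold change was −0.14, with −0.24 in experiment 1 and −0.047 in experiment 2. At an unadjusted p under 0.05, Lyve1 (−0.68) and Mcam (−0.56) were lower, where 3.34% of all targets were. Fcgr2b (0.58) was higher, where 3.43% were. Aged 1.3, the aged replicate 3 of experiment 1, stood apart with 5729 CPM of hepatocyte markers, against at most 1942 CPM elsewhere. Young 2.4 stood apart with 327.5 CPM of Vwf, a marker of larger vessels, against at most 60.0 CPM elsewhere. It did not stand apart in the sum of the 8 tested continuous capillary and large vessel markers, Vwf included. That sum was 5592 CPM in young 2.4, and 4053 to 7798 CPM among young libraries. Targets of olfactory, vomeronasal and taste receptors, silent in endothelium, took 0.146 to 3.18% of gene reads and were high for experiment 2 in young 2.2 and aged 2.4. Of the markers of other cells, 5 of 5 tested B cell markers and 7 of 8 tested Kupffer cell markers were higher in aged libraries at an unadjusted p under 0.05, where 3.43% of all targets were, and 0 were called. For T and NK cell markers the median log2 fold change was 3.32 in experiment 1 and −1.12 in experiment 2. The B cell sum was 4.80 to 325.8 CPM among aged and 2.15 to 58.0 CPM among young libraries, and the Kupffer cell sum was 37.6 to 295.8 CPM among aged and 37.2 to 119.3 CPM among young libraries. Stellate cell and fibroblast markers, from cells that also make matrix, summed to 40.7 to 501.4 CPM among aged and 61.1 to 278.3 CPM among young libraries, with 10 of 14 tested, 0 called and none without a read. Their median log2 fold change was −1.09 in experiment 1 and 0.98 in experiment 2. Of 8 pericentral endothelial markers 7 were tested, and 4 were lower and 3 higher in aged libraries. Among them Dkk3 was called as higher, at a log2 fold change of 1.79 (edgeR adjusted p = 0.00714), where 0.0776% of all targets rose. In such sorted bulk samples, fewer cells of a type and less RNA per cell cannot be told apart.

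The laminin alpha 4 chain is the alpha chain typical of endothelial basement membranes. Lama4 had a lowest, median and highest level of 121.0, 321.9 and 388.6 CPM in aged libraries, against 205.8, 248.1 and 326.5 CPM in young libraries. Its level exceeded the mean of the young libraries of the same experiment in 6 of 7 aged libraries, and the exception, aged 1.3, held the lowest value of all 14. Its log2 fold change, aged over young, was 0.25 (SE 0.18, adjusted p = 0.999), and without aged 1.3 it was 0.38 (adjusted p = 0.428). That library also had the lowest summed LSEC markers. With a term for Kupffer, B and T cell markers in the model, Lama4 was at 0.46.

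The beta chain genes differed between ages by less than the spread between libraries. Lamb1, for the beta 1 chain, was read sparsely, with 9 to 86 reads among aged and 17 to 40 reads among young libraries. Its level averaged 4.10 ± 2.17 CPM among aged and 2.90 ± 1.03 CPM among young libraries (SD, n = 7 each). The ranges overlapped widely, from 1.02 to 6.84 CPM among aged and from 1.28 to 4.37 CPM among young libraries, and the log2 fold change was 0.50 (SE 0.41, adjusted p = 0.999). Lamb2, for the beta 2 chain, had 162.3, 178.8 and 229.0 CPM as lowest, median and highest level in aged libraries, against 133.4, 193.8 and 288.7 CPM in young libraries. All 7 aged libraries lay inside the young range, and the fitted log2 difference was −0.11 (SE 0.14, adjusted p = 0.999) and −0.034 with no TMM scaling.

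The gamma 1 chain, encoded by Lamc1, is shared by most laminins and carries the binding site for nidogen. Lamc1 had 19.2, 29.3 and 45.9 CPM as lowest, median and highest level in aged libraries, against 31.5, 37.9 and 82.9 CPM in young libraries. In experiment 1 the aged libraries had 25.5, 29.3 and 26.1 CPM and the young ones 37.9, 34.1 and 31.5 CPM, without overlap. In experiment 2 the aged libraries had 45.9, 30.5, 44.8 and 19.2 CPM and the young ones 41.9, 32.6, 58.2 and 82.9 CPM, with overlap. Over both experiments Lamc1 had a log2 fold change of −0.51, 1.42-fold lower in aged libraries (SE 0.22, adjusted p = 0.708).

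Nid1 had lower values in aged libraries in both experiments, and Nid2 in experiment 1, while in experiment 2 the direction of Nid2 turned on 1 young library. Nid1, for the main linker between laminin and collagen IV, had 152.4, 310.2 and 423.7 CPM as lowest, median and highest level in aged libraries, against 287.6, 348.1 and 525.6 CPM in young libraries. Aged 1.3 was the lowest of all libraries, and the aged and young values separated in experiment 1 and overlapped in experiment 2. The log2 fold change of Nid1 was −0.33 (SE 0.16, adjusted p = 0.748), with −0.51 in experiment 1 and −0.21 in experiment 2. With a term for the Kupffer, B and T cell markers it was −0.14. Nid2, for the related nidogen found mostly in vascular basement membranes, had 2.72, 6.44 and 8.31 CPM as lowest, median and highest level in aged libraries, against 3.59, 7.11 and 25.3 CPM in young libraries. The highest of these, 25.3 CPM, came from young 2.4, the library high in Vwf, and the next young value was 8.21 CPM. The log2 fold change of Nid2 was −0.80 (SE 0.33, adjusted p = 0.676), and without young 2.4 it was −0.44 (adjusted p = 1). In experiment 2 alone it was −0.65 (SE 0.44), and without young 2.4 it was 0.06 (SE 0.32), where the aged libraries averaged 7.42 CPM and the other 3 young libraries 7.11 CPM. Whether the vessel marker and Nid2 in that library belong together was not tested.

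Perlecan is the large heparan sulfate proteoglycan of basement membranes, which holds growth factors. Hspg2 had 890.2, 996.7 and 449.9 CPM in the aged libraries of experiment 1, against 1276, 1225 and 1075 CPM in the young ones. In experiment 2 it had 1291, 1139, 1211 and 890.4 CPM in aged libraries, against 1504, 974.1, 1537 and 1864 CPM in young libraries. The aged values were lower in experiment 1 without overlap, and in experiment 2 young 2.2 was among the aged values. Perlecan's log2 fold change was −0.48 (SE 0.18, adjusted p = 0.651), and −0.36 without aged 1.3. With the leukocyte marker term it was −0.31.

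Sparc encodes a secreted glycoprotein that binds collagen, collagen IV included, and modulates matrix assembly. In experiment 1 it had 1298, 1409 and 928.6 CPM in aged libraries, against 2045, 2035 and 1545 CPM in young libraries. In experiment 2 it had 2033, 1616, 1875 and 1409 CPM in aged libraries, against 2029, 1806, 2417 and 2929 CPM in young libraries. The ages separated in experiment 1, and in experiment 2 the 4 aged values reached to 2033 CPM, into the young range. For Sparc the fitted log2 fold change was −0.50 (SE 0.15, adjusted p = 0.46). DESeq2 gave −0.51 (adjusted p = 0.0133), and without aged 1.3 the edgeR value was −0.43.

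Fn1 encodes fibronectin, which has plasma and cellular forms that hepatocytes, macrophages and stellate cells also produce. It had 5.51, 6.04 and 58.3 CPM in the aged libraries of experiment 1, against 6.52, 4.37 and 3.12 CPM in the young ones. In experiment 2 it had 16.0, 50.7, 22.6 and 14.8 CPM in aged libraries, against 51.6, 26.5, 19.8 and 11.6 CPM in young libraries. A single library, aged 1.3, was high in experiment 1, and the other values overlapped. Over both experiments its log2 fold change was 0.92 (SE 0.66, adjusted p = 0.999), and 0.07 without aged 1.3. In experiment 1 alone it was 2.31 (SE 0.89, adjusted p = 0.752), and 0.30 without aged 1.3. That library was also the highest in hepatocyte, Kupffer, B and T cell markers. With a term for the leukocyte markers in the model, the Fn1 value was −0.28.

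EMILIN-1 is a glycoprotein of the elastin and microfibril interface that binds integrins and limits the maturation of TGF-beta. Emilin1 had the lowest p of the 10 genes and ranked 54th by p among all 14168 targets. In experiment 1 it had 217.7, 212.7 and 208.2 CPM in aged libraries, against 368.1, 460.0 and 321.8 CPM in young libraries. In experiment 2 it had 263.8, 331.7, 340.0 and 201.3 CPM in aged libraries, against 381.2, 323.8, 444.7 and 359.5 CPM in young libraries. The ages were apart in experiment 1, and in experiment 2 the lowest young library, young 2.2, lay among the aged ones. Its level averaged 253.6 ± 59.8 CPM among aged and 379.9 ± 54.3 CPM among young libraries (SD, n = 7 each), and the fitted level was 1.51-fold lower in aged libraries.

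The log2 fold change of Emilin1 was −0.60 (SE 0.14, adjusted p = 0.209), with −0.85 in experiment 1 and −0.41 in experiment 2. Over all alternatives it ranged from −0.67 to −0.52, and it passed the threshold with DESeq2 (adjusted p = 0.000504) and with no TMM scaling in edgeR (adjusted p = 0.0476, with 0.325% of all targets called). It also passed with a term for receptor reads (−0.62, adjusted p = 0.0147, 0.416% of all targets called) and with a term for stellate cell markers (−0.65, adjusted p = 0.0462, 0.176% of all targets called). With a term for leukocyte markers it was −0.59 (adjusted p = 0.797).

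**Figure D1:**
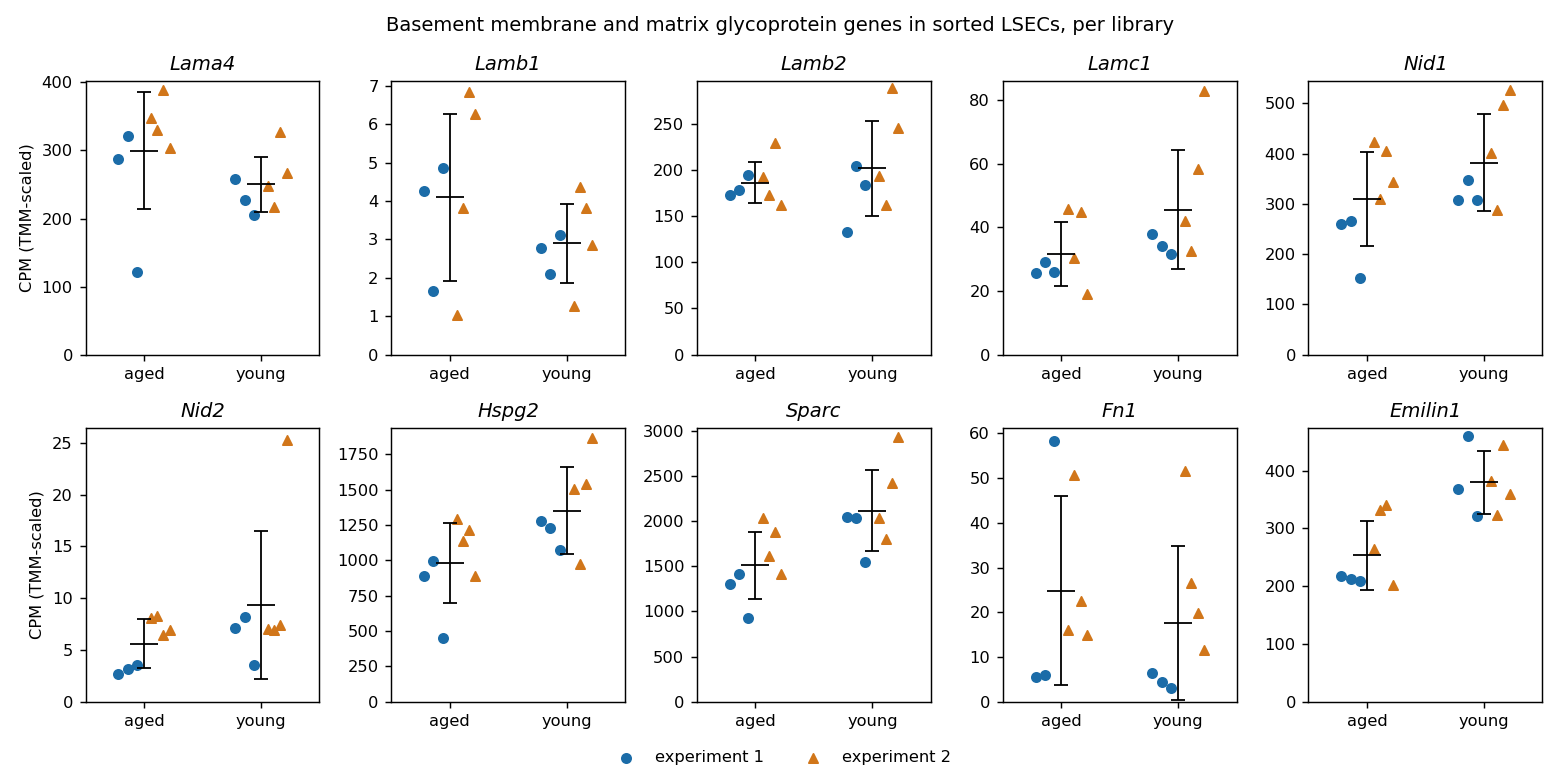
Level of each of the 10 genes in each library, in CPM after TMM scaling on a linear axis of its own for each gene, with aged left and young right. Each point is 1 library (circles for experiment 1, triangles for experiment 2) and bars give the mean ± SD of 7 libraries; aged 1.3 stands out as low for Lama4 and high for Fn1 while young 2.4 stands out as high for Nid2.

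The 2 experiments were compared next. In experiment 1, 6 of 10 genes had all aged values below all young values, namely Lamc1, Nid1, Nid2, Hspg2, Sparc and Emilin1, where 12.2% of all targets did. In experiment 2, 0 of 10 did, where 0.466% of all targets did. Separation in experiment 1 places all its aged libraries under the young mean, so only the libraries of experiment 2 add to the next count. These 6 genes had 7 of 7 aged libraries under the mean of the young libraries of the same experiment, where 4.24% of all targets did. Young 2.4 decides this for Lamc1, Nid1 and Nid2: without it, Hspg2, Sparc and Emilin1 kept 7 of 7, and the other 3 genes had 5 of 7. In experiment 1 the summed stellate cell and fibroblast markers were also lower without overlap, at 51.0, 40.7 and 65.1 CPM in aged libraries, against 90.3, 110.9 and 79.7 CPM in young libraries. With a term for these markers, the experiment 1 value of Emilin1 was −0.67, against −0.85 without it, and that of Sparc −0.46, against −0.63. Hspg2 was at −0.49 with the term and −0.61 without it, Nid1 at −0.34 and −0.51, and Nid2 at −0.64 and −0.99. Lamc1 was at −0.017 with the term and −0.35 without it. In experiment 1 edgeR called 0 of 10 (0% of all targets). At an unadjusted p under 0.05 Emilin1 and Sparc were lower, where 3.88% of all targets were, and Fn1 was higher, where 2.57% were. DESeq2 called 1 of 10, Emilin1 (0.607% of all targets), and limma-voom 0 (0.00706%). In experiment 2 edgeR called 0 of 10 (0.00706% of all targets), and 1 of 10, Emilin1, was lower at an unadjusted p under 0.05, where 1.1% of all targets were. DESeq2 called 0 of 10 there (0.374% of all targets), and limma-voom 0 (0.0212%). The median log2 fold change of the 10 genes was −0.43 in experiment 1, against 0.04 for all targets, and −0.31 in experiment 2, against −0.00297. The difference between the age effects was called for 0 of 10 (0% of all targets), with 0 of 10 at an unadjusted p under 0.05 (2.18% of all targets) and 0 by DESeq2 and limma-voom (0% of all targets for both). The largest difference was that of Fn1 at −2.39 (experiment 2 minus experiment 1, SE 1.13), and its experiment 1 value rests on aged 1.3.

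**Figure D2:**
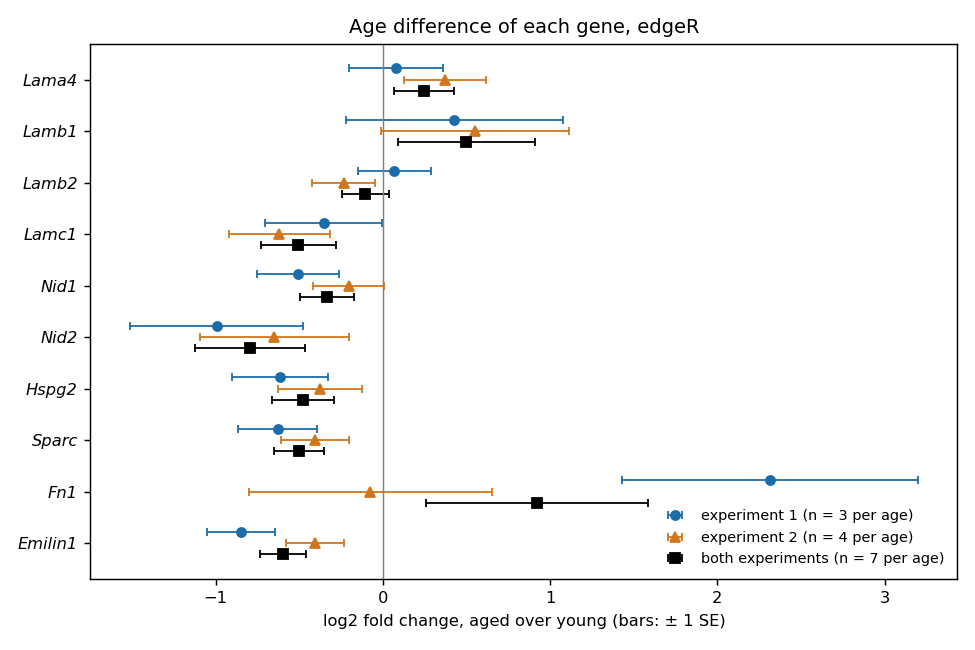
Log2 fold change, aged over young, of the 10 genes over both experiments and within each, with bars of 1 SE on either side. Emilin1, Sparc, Hspg2, Lamc1, Nid1 and Nid2 lie below 0 in both experiments, where Nid2 in experiment 2 turns on young 2.4. Fn1 lies far above 0 in experiment 1 only, where 1 library decides it.

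Ratios between related chains within a library do not depend on library scaling. The log2 ratio of Lamb1 to Lamb2 averaged −5.65 ± 0.94 among aged and −6.07 ± 0.65 among young libraries (SD, n = 7 each), a difference of 0.42 (exact permutation p = 0.359, adjusted over 3 ratios 0.581). The ratio of Nid1 to Nid2 averaged 5.79 ± 0.48 among aged and 5.52 ± 0.64 among young libraries, a difference of 0.27 (exact permutation p = 0.387, adjusted 0.581). The ratio of Lama4 to Lama5, the alpha 5 chain of mature vessel laminin, differed by 0.09 (exact permutation p = 0.781), with −0.59 in experiment 1 and 0.60 in experiment 2. None of the 3 ratios differed beyond the spread between libraries. The tests were two-sided, with 1400 permutations within experiments and a smallest possible p of 0.00143.

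Of all 45 pairs of the 10 genes, 15 passed by Pearson's r after adjustment over the pairs, all with r of at least 0.65, a value that 12.6% of all pairs of tested targets reached. The median r was 0.37 over the 45 pairs and 0.012 over all pairs of targets. By both Pearson's r and Spearman's rho 12 pairs passed, and all 12 lay among Lamc1, Nid1, Nid2, Hspg2, Sparc and Emilin1. The lowest r, −0.40, was between Lamb1 and Hspg2. For Hspg2 and Sparc r was 0.947 (permutation p = 1e-05, adjusted 0.00045) and Spearman's rho 0.925 (permutation p = 1e-05, adjusted 0.00045). The smallest p that 100000 permutations can give is 1e-05. These permutations ran over all 14 libraries and not within experiments, so their p-values include differences between experiments and ages. Without aged 1.3 and young 2.4, the libraries farthest from the median, r was 0.894, and it was 0.942 within experiment 1 and 0.926 within experiment 2. For Nid1 and Hspg2 r was 0.930 and rho 0.851 (permutation p = 3e-05 and 0.00027, adjusted 0.00045 and 0.00304). Without aged 1.3 and young 2.4 r was 0.783, with 0.980 within experiment 1 and 0.861 within experiment 2. The share of receptor reads had a median of 2.80% in experiment 1 and 0.528% in experiment 2. Libraries with more receptor reads had lower levels of most of the genes, with r of −0.72 to 0.11. By Pearson's r 6 of 10 passed the adjusted threshold. All 6 had r of −0.58 or lower, as did 30.4% of all tested targets, whose median r was −0.37, against −0.59 for the 10 genes. By both coefficients 5 passed, without Sparc (rho −0.534, adjusted permutation p = 0.0749). Lama4, 1 of the 6, had r of −0.065 within experiment 1 and −0.737 within experiment 2. For Nid1 r was −0.722 and rho −0.846 (permutation p = 0.00192 and 0.00027, adjusted over 10 genes 0.00937 and 0.0027), with r of −0.743 when aged 2.1 and aged 2.3, the farthest, were left out, −0.518 within experiment 1 and −0.671 within experiment 2. Scaled without TMM, 5 of the 45 pairs passed, and 0 of 10 relations with receptor reads did. How much of the variation that the genes share follows this property of the libraries was not tested.

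**Figure D3:**
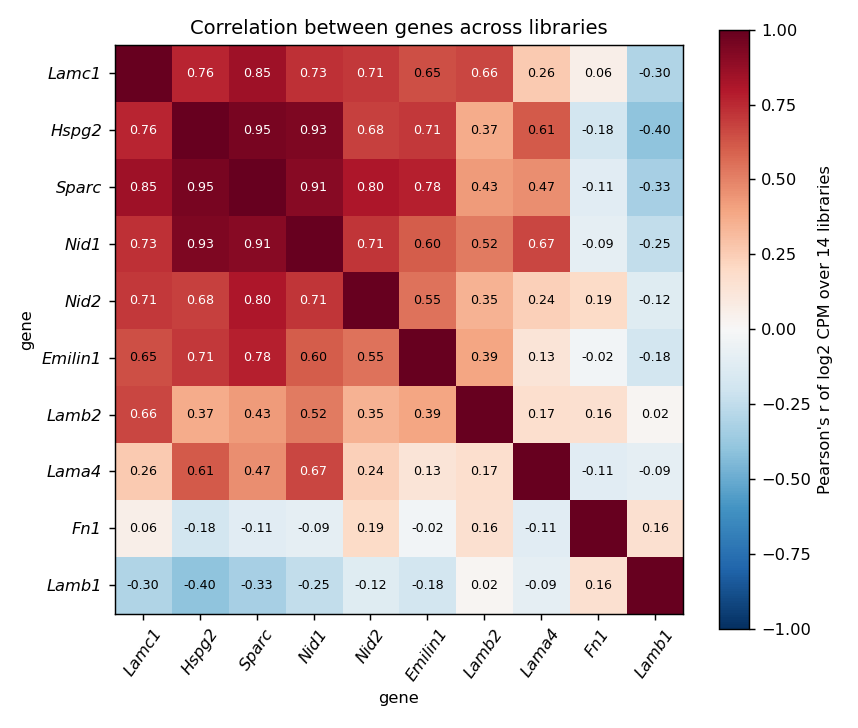
Pearson's r of log2 CPM over 14 libraries for each pair of the 10 genes. The 12 pairs that passed by both coefficients have r of 0.65 to 0.95, and the pair of Lamb1 and Hspg2 has −0.40.

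The promoters of Hspg2, Nid1 and Sparc, from the RefSeq table of GRCm38.p6, are shown because these genes had the 3 highest r with each other. Each runs from 250 bases before to 50 bases after the annotated start, on the strand of the gene: Hspg2 at chr4:137468553-137468852 (plus strand), Nid1 at chr13:13437352-13437651 (plus strand) and Sparc at chr11:55420031-55420330 (minus strand). Capitals mark GGGCGG, the SP1 motif, and CCAAT, read on both strands.
Hspg2: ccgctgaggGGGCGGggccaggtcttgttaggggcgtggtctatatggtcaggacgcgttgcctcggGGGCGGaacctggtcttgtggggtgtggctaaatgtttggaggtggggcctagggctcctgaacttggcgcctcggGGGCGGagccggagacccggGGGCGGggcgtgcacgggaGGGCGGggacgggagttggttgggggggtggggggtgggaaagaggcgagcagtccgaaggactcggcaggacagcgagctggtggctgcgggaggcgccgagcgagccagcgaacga
Nid1: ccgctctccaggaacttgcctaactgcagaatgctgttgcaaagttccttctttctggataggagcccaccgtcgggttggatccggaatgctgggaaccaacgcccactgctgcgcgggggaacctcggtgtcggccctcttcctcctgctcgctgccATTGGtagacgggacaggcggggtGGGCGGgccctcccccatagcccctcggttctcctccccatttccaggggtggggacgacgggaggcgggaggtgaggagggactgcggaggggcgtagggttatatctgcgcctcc
Sparc: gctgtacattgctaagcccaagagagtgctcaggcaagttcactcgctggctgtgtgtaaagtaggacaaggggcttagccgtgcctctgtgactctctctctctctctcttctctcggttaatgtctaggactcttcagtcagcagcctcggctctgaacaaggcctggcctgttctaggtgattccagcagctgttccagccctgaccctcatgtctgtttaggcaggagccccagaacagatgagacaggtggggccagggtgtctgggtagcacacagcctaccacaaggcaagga
Hspg2 held 5 GGGCGG matches, Nid1 held 1 GGGCGG and 1 CCAAT (as ATTGG), and Sparc held neither. GGGCGG occurs in 35.7% of the 32851 promoters of the table and CCAAT in 37.4%. GC content was 70.3% for Hspg2, 64.7% for Nid1 and 55.3% for Sparc, against a median of 52.7% over the table. Searches on both strands for CCGGAAG (ETS, 8.86% of promoters), TGANTCA (AP-1, 7.81%), TATAAA (13.6%) and GGAGGAGGA (3.03%) found no match in the 3 windows. A match is a description of the letters. Lamb1, Lamb2 and Emilin1 also had an entry, and Lama4, Lamc1, Nid2 and Fn1 did not.

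Collagen IV, the partner network of the laminins, had chains of both directions. Col4a4 and Col4a3 rose from low levels, at a log2 fold change of 2.81 (adjusted p = 0.000336) and 2.18 (adjusted p = 0.0325). Col4a4 averaged 13.4 ± 3.41 CPM among aged and 2.11 ± 1.27 CPM among young libraries. Col4a3 averaged 11.3 ± 5.70 CPM among aged and 2.90 ± 2.19 CPM among young libraries. In aged 1.3 Col4a3 had 4.85 CPM, under the mean of the young libraries of experiment 1, where young 1.2 had 6.72 CPM. The chains of the common collagen IV trimer had values of the same sign as Hspg2 and Sparc. Col4a1 averaged 827.7 ± 191.6 CPM among aged and 1348 ± 457.4 CPM among young libraries (SD, n = 7 each), with a log2 fold change of −0.68 (adjusted p = 0.182). Col4a2 averaged 237.4 ± 60.0 CPM among aged and 366.2 ± 90.3 CPM among young libraries, with a log2 fold change of −0.60 (adjusted p = 0.468). Both genes had 7 of 7 aged libraries under the mean of the young libraries of the same experiment, as did 4.24% of all targets. In experiment 2 the ages overlapped, where aged 2.1 had 1123 CPM of Col4a1 and 334.9 CPM of Col4a2. Young 2.2 had 1042 and 300.6 CPM. Col4a2 also overlapped in experiment 1, with 258.1 CPM in aged 1.2 and 256.1 CPM in young 1.3. Of the 8 genes of collagens IV, XV and XVIII, 5 were tested, 2 rose, where 0.0776% of all targets did, and 0 fell.

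Other basement membrane genes gave no call, at a background of 0.162% of all targets. Of 7 other laminin chain genes 4 were tested, with a median log2 fold change of 0.10 and 0 called, among them Lamc3 at 0.87 and Lama5 at 0.14. Of 16 other basement membrane components 8 were tested, with a median of 0.14 and 0 called, among them the proteoglycan agrin gene Agrn at −0.42 and the netrin gene Ntn1 at 0.85. Of 19 genes for enzymes and chaperones that fold and crosslink collagen 16 were tested, with a median of −0.18, and 13 were lower, none called. Serpinh1, for the collagen chaperone HSP47, was at −0.73, Pxdn, for peroxidasin, which crosslinks collagen IV, at −0.64, and Tgm2, for a transglutaminase, at −0.42. P3h2, of the same list, went the other way at 0.35.

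**Figure D4:**
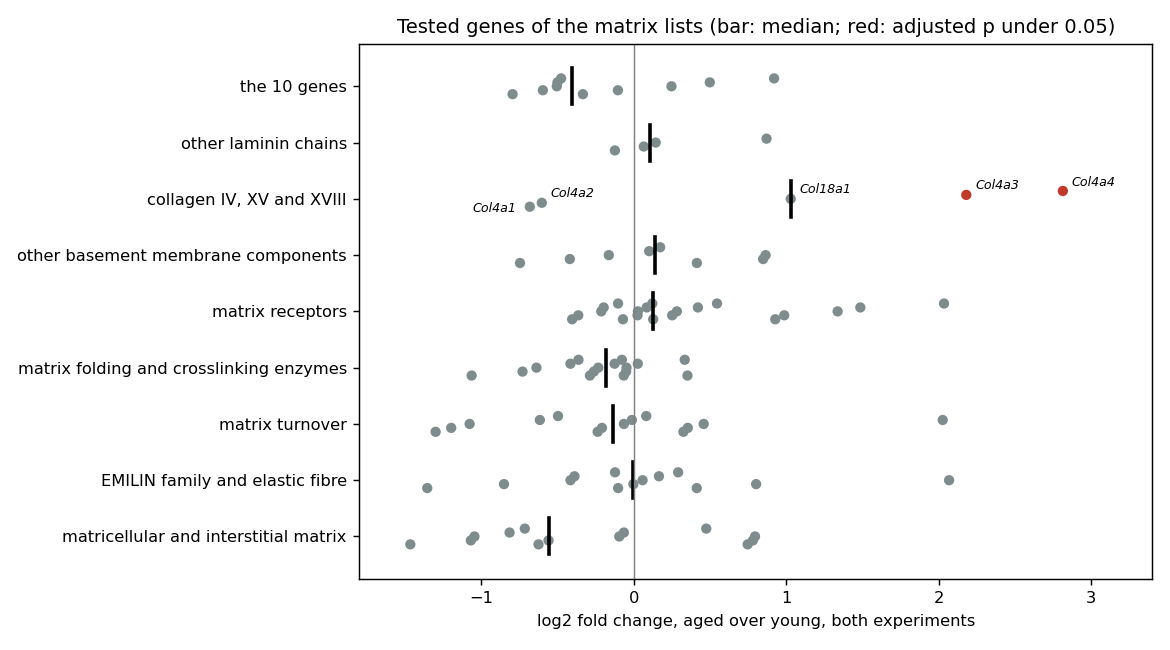
Log2 fold change, aged over young, of each tested gene in the lists of matrix genes, with a bar at the median of each list. Red marks an adjusted p under 0.05, which Col4a3 (2.18) and Col4a4 (2.81) have, and the median of the 10 genes described here is −0.41.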

How the data were processed

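Per the labels' protocols, RNA came from sorted cells by TRIzol LS extraction, and the Ion AmpliSeq mouse kit gave the libraries. The deposited values are raw read counts per RefSeq target, 1 file per library, judged from the values. Tools in the submitters' processing notes include HTSeq 0.6.0 and DESeq2 1.18.1, with roles, aligner and genome build not given in the sources used here. Bookkeeping entries, 1.24 to 3.04% of reads, were left out. Names came from RefSeq tables of GRCm38.p6, then GENCODE, and 1368 targets stayed unmatched. Amplicon reads carry no molecular identifiers.

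Tests ran in edgeR 4.0.16 under R 4.3.3 (filterByExpr, TMM, quasi-likelihood F test, experiment as a term). A model of 4 means gave each experiment and the difference between them. SE is the fold change over the root of its F statistic. Genes were called at an adjusted p under 0.05 over all 14168 targets. Levels are CPM after TMM, and log2 CPM and ratios used a prior count of 2. DESeq2 1.42.0, limma-voom (limma 3.58.1), other scalings, filters, covariates and left-out libraries were alternatives. On simulated counts, the edgeR test over both experiments recovered 5 of 50 targets changed 1.5-fold, 23 of 50 changed 2-fold and 43 of 50 changed 8-fold. It called 5 of 13846 unchanged targets. A gene that differs by 1.5-fold can therefore easily go uncalled. Members and lists were chosen with earlier results of these data known. All 10 genes are named, and from each other list every called gene and up to 4 with the lowest p and a mean of at least 5 CPM, plus the 5 targets with the highest r with the mean of the 10 genes. Aged 1.1 and 1.2 were closer to each other (chi-square per degree of freedom 6.35) than other pairs of a group (at least 19.6) but beyond sampling noise, and were kept as separate libraries.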

Additional observations from a re-analysis of the deposited data

Results flagged for a closer look

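Lama4 in aged 1.3 was 120.956 CPM, far under the nearest aged library at 287.0 CPM. The gap was 0.62 of the range of the 7 aged libraries, above Dixon's value of 0.568. Nid2 in young 2.4 was 25.2778 CPM, far above the nearest young library at 8.21 CPM, a gap of 0.787 of the range. Chance gives a gap above 0.568, the value used as the cut, in about 1 in 20 groups of 7.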

How the results depend on the processing

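Of the 10 genes, 0 were called in the main analysis and 0 in 23 of 27 alternatives over both experiments. The count was 1 (Emilin1) with no TMM scaling, with the receptor term and with the stellate term, and 2 (Emilin1 and Sparc) with DESeq2. In experiment 1 it was 1 with DESeq2. Fn1 turned to −0.28 with the leukocyte term, the only one of the 10 genes to change direction in an alternative over both experiments. Targets called over both experiments, 23 in the main analysis, were 46 with no scaling, 146 with DESeq2, 12 without the experiment term, 59 with the receptor term, 3 with the leukocyte term, 36 without young 2.2 and aged 2.4, 4 with aged 1.1 and 1.2 summed, and 4 to 29 with 1 library left out (4 without aged 1.1 or aged 1.2, 5 without aged 2.1 or young 2.4, 8 without aged 2.2, 9 without young 1.3 or aged 2.3, 10 without young 1.1 and 11 without young 2.3). With the replicate number as a block 5 were called, and 0 of the 10 genes. The labels do not say whether the numbers pair the samples. Correlations of deviations were −0.385 to 0.776, with 3 of 7 aged libraries closest to their own number. These 7 values are too few and too scattered to decide it. The collagen IV, XV and XVIII median, 1.03, was 0.46 with limma-voom, 0.34 with the block, −0.30 with the leukocyte term, 1.28 without young 2.2 and aged 2.4, and 0.019 (without aged 1.3) to 1.27 with 1 library left out. The matricellular median, −0.56, was 0.12 with the leukocyte term. The Lama4 to Lama5 difference, 0.09, was −0.20 without young 2.2 and aged 2.4, −0.094 without aged 2.4 and −0.038 without young 2.2. The count of genes with every aged library under the young mean, 6, was 3 without young 2.4 and 6 without aged 1.3, alternatives chosen after seeing the data. Without TMM, 5 pairs in place of 15 and 0 receptor relations in place of 6 passed. The cause of these shifts was not tested. Depth limits Lamb1 and Nid2, with as few as 9 and 35 reads in a library.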

Other observations

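Receptors and proteases of the matrix were measured in the same libraries, and no gene of these lists was called. Of 22 matrix receptor genes 20 were tested, with a median log2 fold change of 0.12. The integrin gene Itgb5 averaged 9.67 ± 6.69 CPM among aged and 3.35 ± 0.68 CPM among young libraries (SD, n = 7 each), with a log2 fold change of 1.48, and Itgb3 was at 0.99. Of 17 matrix turnover genes 14 were tested, with a median of −0.14. Adamts1, for a protease that cleaves proteoglycans, averaged 299.3 ± 100.5 CPM among aged and 743.7 ± 490.2 CPM among young libraries, with a log2 fold change of −1.30, and Adamts4 was at −1.08. Mmp9, of the same list, went the other way at 2.02, and of the 14 tested genes 9 were lower and 5 higher. Of 21 matricellular and interstitial matrix genes 13 were tested, with a median of −0.56, and 9 were lower and 4 higher. Among them were Ccn1 at −1.05, Col5a2 at −1.07, Vtn at 0.78 and Ccn2 at 0.75. Of 18 genes of the EMILIN family and elastic fibres 13 were tested, with a median of −0.00363.

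Outside these lists, the targets whose level followed the mean of the 10 genes most closely, after subtraction of each experiment's mean over 14 libraries, were Smarcb1 (r = 0.947), Ddx24 (0.942), Pramel12 (0.932), Dnaja4 (0.924) and Wdr45b (0.923). The median r was 0.433 over the 6989 targets averaging 20 CPM or more, and the mean of the 10 genes had r of −0.657 with the share of receptor reads. Ets1, named in the series title and picked here after its value was seen, ranked 13th with r of 0.911.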
